A study of Saccharomyces cerevisiae with 4 samples.

Results

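In budding yeast (Saccharomyces cerevisiae) labelled with 4-thiouracil, the measured genes that lengthen, desaturate, activate and carry long fatty acids did not move as a block when rapamycin was given to a strain built to export the TFIIH subunit Ssl2 from the nucleus. The elongase genes ELO3 and ELO2 took a smaller share of the newly made RNA with rapamycin, and so did the acyl-CoA synthetase gene FAA4, while its paralog FAA1 took a larger one. Only the change of ELO3 passed in every alternative processing. ELO2, FAA4 and FAA1 each lost their call when certain single libraries were left out. The desaturase gene OLE1, the elongase gene ELO1 and the acyl-CoA-binding protein gene ACB1 did not pass the test. The set holds 10 genes (ACC1, FAS1, FAS2, OLE1, ELO1, ELO2, ELO3, FAA1, FAA4 and ACB1), found in the annotation by their systematic names. This gave 7 transcripts among 6030 in all, of which 4928 are open reading frame transcripts. ACC1, FAS1 and FAS2 were not analysed here.

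The study compared 2 libraries without rapamycin with 2 libraries with it, all from strain Y40343 with the allele Ssl2-FRB::kanMX6. In the anchor-away method rapamycin ties an FRB-tagged protein to an anchor that leaves the nucleus, and Ssl2 is the TFIIH translocase that acts in promoter opening by RNA polymerase II. Every culture was grown in YPD at 30 C to an OD600 of 0.8 and received 5 mM 4-thiouracil for 6 min, after which labelled RNA was purified. The rapamycin dose and exposure are not in the labels, no untagged strain with rapamycin was analysed here, and nothing in them ties the replicates to separate cultures, so the tests reflect how far these libraries vary, possibly for technical reasons alone.

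Saturated fatty acids are built in the cytosol from acetyl-CoA and malonyl-CoA by acetyl-CoA carboxylase and the fatty acid synthase, and part of them is then desaturated by Ole1 in the membrane of the endoplasmic reticulum. Elongases of the same membrane add carbon units, with Elo1 acting on shorter chains and Elo2 and Elo3 making the very long chains that go into sphingolipids. Faa1 and Faa4 activate free fatty acids taken up or released in the cell to their CoA esters, and Acb1 binds acyl-CoA esters in the cytosol.

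The libraries without rapamycin held 32435994 and 29318499 counts on features, and those given rapamycin 11441998 and 12685769. Of all counted reads, 33.7% and 33.1% lay outside every annotated feature in the former and 50.5% and 49.95% in the latter, and the part of that difference in the results was not tested. The markers of MATalpha cells MF(ALPHA)1, STE3 and SAG1 lay between 87.1 and 427 CPM (counts scaled to the same library total, here without TMM), and the markers of MATa cells MFA1, MFA2, STE2, BAR1 and AGA2 between 0.0308 and 18.5. FPR1, the gene of the rapamycin receptor, lay between 1.81 and 2.25 CPM. Levels below are CPM with TMM scaling, and levels of different genes are compared only as CPM per kb of the annotated transcript. Each change is relative to the bulk of transcripts, so a change shared by most of them is not seen, and less transcription and less labelled RNA per cell cannot be told apart.

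The letters just before the transcript starts are shown for the 4 genes whose change passed the test, since Ssl2 acts at promoters and FAA1 and FAA4 moved in opposite directions. Each line gives the 150 bases before the annotated start on the gene's own strand, 5′ to 3′, from the R64 genome, with capitals for matches, on either strand, to 3 motifs. These are TATAAA, the core CATGTG of the site for the lipid activators Ino2 and Ino4, and TTACCCG for the general factor Reb1. TATAAA is a fixed spelling and narrower than the TATA element. Other spellings of that element, such as the tatataag that opens the FAA4 line, were not searched, so presence or absence of a TATA element is not read here. The windows are chrXV:909164-909313 for FAA1, chrXIII:759430-759579 for FAA4, chrXII:867060-867209 for ELO3 and chrIII:190416-190565 for ELO2, all on the plus strand.
FAA1: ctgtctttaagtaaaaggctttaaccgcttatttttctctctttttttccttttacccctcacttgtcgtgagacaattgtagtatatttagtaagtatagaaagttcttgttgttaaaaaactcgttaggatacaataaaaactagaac
FAA4: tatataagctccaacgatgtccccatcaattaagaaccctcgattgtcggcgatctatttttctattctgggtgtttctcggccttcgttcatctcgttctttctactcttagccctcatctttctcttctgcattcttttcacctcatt
ELO3: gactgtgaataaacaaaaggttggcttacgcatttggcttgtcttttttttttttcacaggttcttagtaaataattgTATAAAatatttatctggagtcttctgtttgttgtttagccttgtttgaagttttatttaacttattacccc
ELO2: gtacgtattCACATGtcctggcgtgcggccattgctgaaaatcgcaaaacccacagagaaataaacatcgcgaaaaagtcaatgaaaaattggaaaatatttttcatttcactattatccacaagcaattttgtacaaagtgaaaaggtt

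The TATAAA match of ELO3 began at position -72 from the transcript start, and the CATGTG match of ELO2 lay on the other strand at -141. Over the 250 bases before the start, TATAAA was also found for OLE1 (-29, other strand) and TTACCCG for ELO1 (-137), while FAA1, FAA4 and ACB1 held none of the 3 motifs, which do not overlap each other in these windows. Of 4928 open reading frame transcripts, 41.7% held TATAAA, 6.82% CATGTG and 9.17% TTACCCG in windows of the same length. The last 150 bases were 69.3% A or T for FAA1, 58% for FAA4, 70% for ELO3 and 64% for ELO2. A match is a description of letters and not a mapped site, and a missing match says only that these exact letters are not in the window.

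Among the 7 genes, 1 was called higher (14.3%) and 3 were called lower (42.9%) by edgeR's quasi-likelihood test at a Benjamini-Hochberg adjusted p under 0.05. Over all 5707 features tested, 19.3% were called higher and 26.7% lower, and over the open reading frame transcripts alone 17.5% and 30.2%. The median log2 fold change of the 7 genes was -0.31, against -0.03 over all features and -0.14 over open reading frames. All 7 passed the filter on low counts, with raw counts of at least 274 in every library. The same 4 genes had no overlap between the groups, with 1 above and 3 below, where 34.1% of all features lay above and 40.1% below without overlap.

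**Figure D1:**
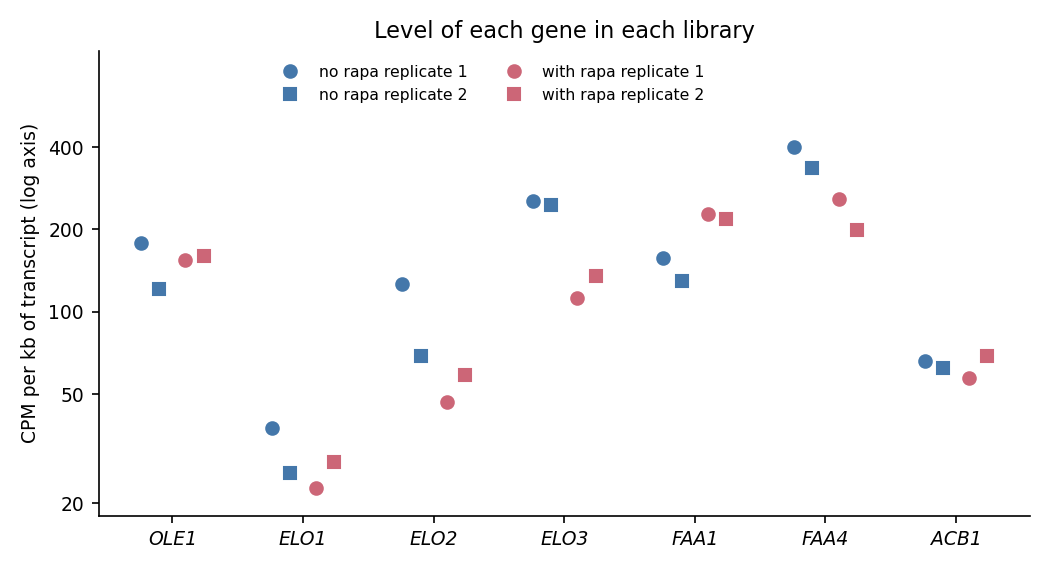
Level of each of the 7 genes in each library, as CPM per kb of transcript on a log axis. Blue points are the libraries without rapamycin, red points those with it, circles replicate 1 and squares replicate 2. FAA1 is higher and FAA4, ELO3 and ELO2 are lower in both libraries with rapamycin, while the groups overlap for OLE1, ELO1 and ACB1.

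OLE1 (YGL055W; chromosome VII, 398566 to 400384, plus strand, R64) encodes the desaturase that puts the double bond into palmitoyl- and stearoyl-CoA. It measured 324 and 221 CPM without rapamycin and 282 and 291 CPM with it. Both libraries with rapamycin fell between the replicates without it. Its log2 fold change of 0.08 ± 0.20 (SE) did not pass (adjusted p = 0.782 by the quasi-likelihood test of edgeR). The replicates without rapamycin stood 1.47-fold apart, and 6.52% of open reading frames were at least as far apart between those libraries, so the level without rapamycin is the less certain one. With rapamycin the replicates differed 1.03-fold. By CPM per kb, OLE1 stood on average at the 81.1st percentile of open reading frames without rapamycin and the 84.1st with it.

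The open reading frames whose log2 CPM profile over the 4 libraries lay nearest to that of OLE1, each profile centred on its own mean, were CYT1 (Euclidean distance 0.0999), EUG1 (0.103) and MES1 (0.115), among 3580 candidates whose mean log2 CPM was 5 or more. CYT1 encodes cytochrome c1, EUG1 a protein disulfide isomerase of the endoplasmic reticulum and MES1 the methionyl-tRNA synthetase. None of the 3 was called, with log2 fold changes of 0.08 ± 0.18, 0.06 ± 0.23 and 0.10 ± 0.22 (SE). With 4 libraries such a likeness rests on few values.

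ELO3 (YLR372W; XII, 867210 to 868493, plus strand), the elongase gene for the longest of the very long chains, fell by the largest factor of the 7. It measured 328 and 316 CPM without rapamycin and 144 and 173 CPM with it. The groups did not overlap, and the replicates without rapamycin stood 1.04-fold apart. Its log2 fold change was -1.02 ± 0.17 (SE, edgeR quasi-likelihood test; adjusted p = 0.000531), or 2.03-fold lower. It kept direction and call in all 11 alternatives, with adjusted p from 1.66e-08 to 0.00396 by edgeR or DESeq2.

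ELO2 (YCR034W; III, 190566 to 191803, plus strand), which makes very long chains for sphingolipids, was also lower. It measured 156 and 85.3 CPM without rapamycin and 57.8 and 72.9 CPM with it. The groups did not overlap, but replicate 2 without rapamycin lay close to the libraries with rapamycin. The log2 fold change was -0.88 ± 0.25 (SE, edgeR quasi-likelihood test; adjusted p = 0.0126), or 1.85-fold lower. The replicates without rapamycin stood 1.83-fold apart, which only 1.79% of open reading frames matched or exceeded. Without no rapa replicate 1 the log2 fold change was -0.40 and no longer passed (adjusted p = 0.298, edgeR), with adjusted p over its alternatives from 1.80e-05 to that value.

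ELO1 (YJL196C; X, 67715 to 68805, minus strand), the elongase gene for shorter chains, was the lowest of the 7 per kb. It measured 41.0 and 28.1 CPM without rapamycin and 24.8 and 30.9 CPM with it. The groups overlapped, and the log2 fold change was -0.31 ± 0.25 (SE, edgeR quasi-likelihood test; adjusted p = 0.335). It ranged from -0.57 without no rapa replicate 2 to -0.02 without no rapa replicate 1, and was uncalled in both. It stood near the 30.3rd percentile of open reading frames without rapamycin and the 30.6th with it.

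The summed elongase level was 419 and 340.5 CPM per kb without rapamycin and 181 and 222 CPM per kb with it. ELO3 gave 60.9% and 72.2% of that sum without rapamycin and 61.7% and 60.7% with it. ELO1 gave 8.98% and 7.56% without and 12.5% and 12.8% with rapamycin. The ratio of ELO1 to ELO2 per kb was 0.298 and 0.374 without and 0.487 and 0.481 with rapamycin, so the groups did not overlap. The ratio of ELO2 to ELO3 was 0.494 and 0.280 without and 0.417 and 0.437 with rapamycin, so its groups did. An exact two-sided permutation test of 2 libraries against 2 cannot go below p = 0.333, which is what the ratio of ELO1 to ELO2 gave, and the ratio of ELO2 to ELO3 gave p = 1.

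FAA1 and FAA4, the genes of the main cytosolic acyl-CoA synthetases, moved in opposite directions. FAA1 (YOR317W; XV, 909314 to 911694, plus strand) measured 375 and 309 CPM without rapamycin and 543 and 519 CPM with it. Both libraries with rapamycin lay above both without. The log2 fold change was 0.64 ± 0.19 (SE, edgeR quasi-likelihood test; adjusted p = 0.0167), or 1.55-fold higher. Leaving out either library without rapamycin ended the call, with a log2 fold change of 0.77 (adjusted p = 0.0684) without no rapa replicate 1 and 0.49 (0.259) without no rapa replicate 2, by edgeR. The adjusted p over all its alternatives ran from 0.000372 to 0.259.

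FAA4 (YMR246W; XIII, 759580 to 762071, plus strand) had the highest level of the 7 per kb without rapamycin. It measured 1002 and 833 CPM without rapamycin and 642 and 498 CPM with it. Both libraries with rapamycin lay below both without. The log2 fold change was -0.69 ± 0.22 (SE, edgeR quasi-likelihood test; adjusted p = 0.0253), or 1.61-fold lower. FAA4 no longer passed without no rapa replicate 1 (log2 fold change -0.56, adjusted p = 0.219), without no rapa replicate 2 (-0.83, 0.0572), without with rapa replicate 2 (-0.42, 0.125) and with the size factors of DESeq2 in edgeR (-0.61, 0.0605). Over all its alternatives the adjusted p ran from 0.000443 to 0.219.

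Without rapamycin, the balance of the pair was steadier between replicates than the level of either gene. With rapamycin it was less steady than the level of FAA1, whose replicates differed 1.05-fold. Per kb, FAA1 stood at 0.392 and 0.388 times FAA4 without rapamycin and at 0.885 and 1.09 times with it. By mean log2 ratio that is 2.52-fold higher with rapamycin, and leaving out any 1 of the 4 libraries left a log2 difference of 1.18 to 1.49. FAA1 made up 28.1% and 27.9% of the pair's summed CPM per kb without rapamycin and 46.9% and 52.2% with it. The sum itself was 559 and 464 CPM per kb without and 486 and 418 with rapamycin, and these ranges overlap. The exact two-sided permutation test gave p = 0.333, the smallest that 2 libraries against 2 allow. Reads that align to several places were listed at 0 in every library, so how far FAA1 and FAA4 could exchange reads is not known.

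**Figure D2:**
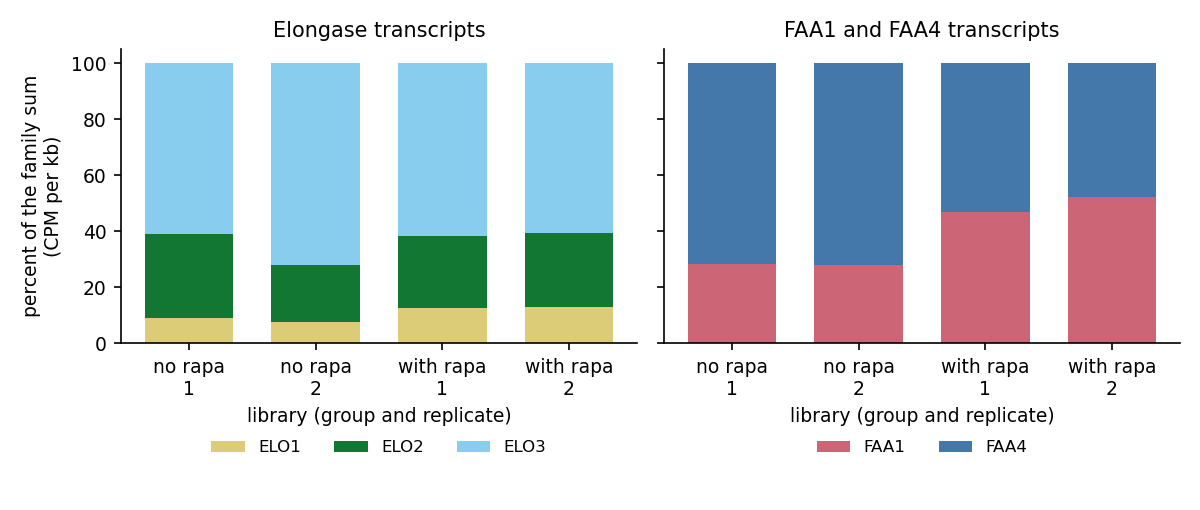
Share of each transcript in the summed CPM per kb of the 3 elongase genes (left) and of FAA1 and FAA4 (right), in percent, for each library by group and replicate number. FAA1 holds 28.1% and 27.9% of its pair without rapamycin and 46.9% and 52.2% with it, while ELO3 holds at least 60.7% of the elongase sum in every library.

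FAA1 lies almost wholly under an antisense noncoding transcript. XUT_15R-403, of the class of transcripts that accumulate without the exonuclease Xrn1, runs on the opposite strand from 911649 to 908787 and covers 98.1% of the FAA1 transcript and all of the promoter window shown above. It measured 73.9 and 46.3 CPM without rapamycin and 18.8 and 23.3 CPM with it. The groups did not overlap, and the log2 fold change was -1.51 ± 0.26 (SE, edgeR quasi-likelihood test; adjusted p = 0.000528), or 2.85-fold lower. It kept its call in all the alternatives that tested it, with log2 fold changes from -1.82 to -1.15. Per kb, FAA1 stood at 6.10 and 8.01 times its antisense transcript without rapamycin and at 34.7 and 26.8 times with it.

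The other overlaps were short. The end of ELO2 overlaps 115 bases of RRP43, an exosome subunit gene on the opposite strand, which was lower at -0.55 ± 0.17 (SE, edgeR quasi-likelihood test). RRP43 no longer passed without no rapa replicate 1 (-0.58), no rapa replicate 2 (-0.54) or with rapa replicate 2 (-0.31), with DESeq2 (-0.48), with library size alone (-0.46) or with open reading frames alone (-0.43). FAA1 shares 80 bases with YOR318C and ACB1 37 bases with XUT_7F-261, both on the opposite strand and at most 4.33 CPM in any library. OLE1, ELO1, ELO3 and FAA4 overlap no annotated feature, whereas 47.3% of open reading frame transcripts overlap another.

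**Figure D3:**
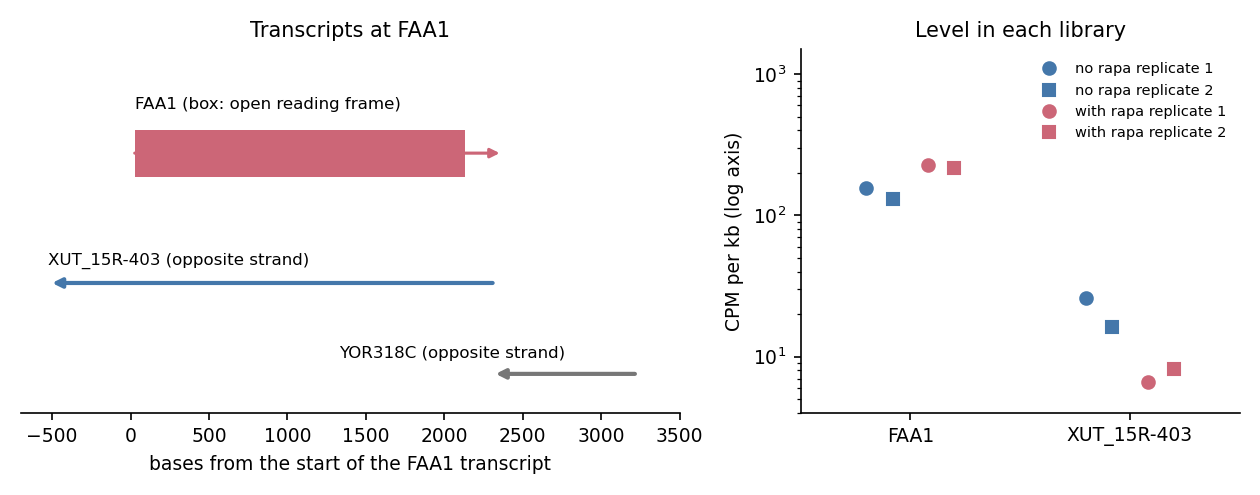
Left, annotated transcripts around FAA1 to scale, in bases from the start of the FAA1 transcript, with arrows pointing in the direction of transcription. Right, CPM per kb on a log axis of FAA1 and of its antisense transcript in each library, where FAA1 is higher and XUT_15R-403 lower in both libraries with rapamycin.

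ACB1 (YGR037C; VII, 559550 to 560038, minus strand), which encodes the acyl-CoA-binding protein, has the shortest transcript of the 7 at 489 bases. It measured 32.3 and 30.4 CPM without rapamycin and 28.1 and 33.8 CPM with it. The groups overlapped, and the log2 fold change was -0.02 ± 0.22 (SE, edgeR quasi-likelihood test; adjusted p = 0.963). Its sign turned under other scalings, up to 0.11 with open reading frames alone.

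The order of the levels per kb changed with rapamycin. Without it, FAA4 led at 368 ± 47.7 CPM per kb (SD, n = 2), then came ELO3 at 250 ± 6.56, OLE1 at 150 ± 40.0, FAA1 at 143 ± 19.7, ELO2 at 97.5 ± 40.5, ACB1 at 64.1 ± 2.76 and ELO1 at 31.7 ± 8.38. In that order OLE1 and FAA1, FAA1 and ELO2, and ELO2 and ACB1 did not differ beyond their SDs. Within both libraries, though, FAA1 (157 and 130) exceeded ELO2 (126 and 68.9), which exceeded ACB1 (66.0 and 62.1). OLE1 and FAA1 changed order between the libraries. With rapamycin FAA4 (229 ± 40.8) and FAA1 (223 ± 6.99) could not be ordered, and OLE1 at 158 ± 3.45 came before ELO3 at 123 ± 16.2. Below them, ACB1 (63.3 ± 8.16) and ELO2 (52.8 ± 8.65) lay within reach of each other by their SDs, and ELO1 was again lowest at 25.5 ± 3.99. Within both libraries with rapamycin, ACB1 (57.5 and 69.1) exceeded ELO2 (46.7 and 58.9). ELO3 stood at the 91.6th percentile of open reading frames without rapamycin and at the 79.4th with it, and FAA1 went from the 80.6th to the 89.5th.

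Transcript length moved with fold change over all open reading frames, so each gene is set beside its length class. In the class from 2000 to 4000 bases, which holds FAA1 (2381) and FAA4 (2492), the median log2 fold change was -0.53 over 1255 transcripts, with 52.7% called lower and 9.16% higher. FAA4 at -0.69 lay near that median, and FAA1 at 0.64 far above it. In the class from 1000 to 2000 bases, which holds OLE1 (1819) and the elongase genes (1091 to 1284), the median was -0.17 over 2246 transcripts, with 29.5% lower and 17% higher. ELO3 at -1.02 and ELO2 at -0.88 lay below it, at the 14.3rd and 18.1st percentile of fold change over all open reading frames. In the class under 1000 bases, which holds ACB1, the median was 0.27 over 1355 transcripts. The part of length in these results was not tested.

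**Figure D4:**
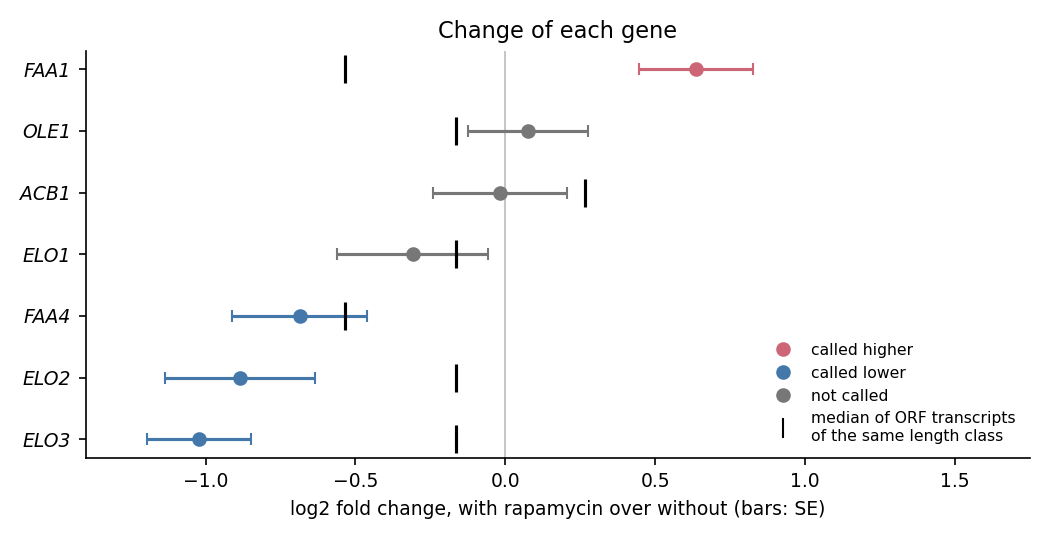
Log2 fold change of each gene with rapamycin over without, with bars for the SE, coloured by whether it was called higher, lower or not called. Black ticks give the median of the open reading frame transcripts in the same length class, which is -0.53 for FAA1 and FAA4, -0.17 for OLE1 and the elongase genes, and 0.27 for ACB1.

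The 7 transcripts also differ in the untranslated stretches of the annotation. The stretch before the start codon was 227 bases for FAA4 and 144 for ELO3, but 62 for OLE1, 44 for ACB1, 29 for FAA1, 26 for ELO2 and 23 for ELO1, against a median of 47 over 4842 open reading frame transcripts (quartiles 26 and 88). The stretch after the stop codon ran from 102 bases (ELO3) to 249 (FAA1), with a median of 119 over all. The genes called lower included the longest and nearly the shortest 5′ stretches of the set.

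Other genes of lipid metabolism were read from 7 lists holding 63 genes, of which 59 were tested, with 6 called higher, 25 lower and 28 uncalled, against the 19.3% and 26.7% of all features. In the list of partners of elongation and acetyl-CoA supply, 1 of 7 tested genes was higher, 0 were lower, and the median log2 fold change was 0.29. The higher gene was ACS1, an acetyl-CoA synthetase gene, which went from 7.74 ± 1.37 to 18.6 ± 6.93 CPM (SD, n = 2; 1.27 ± 0.37 as log2 fold change with its SE; adjusted p = 0.0144, edgeR), and which no longer passed when no rapa replicate 1 was left out (1.09). IFA38 and PHS1, whose products act in the same elongation cycle as the elongases, were uncalled at 0.29 ± 0.18 and 0.22 ± 0.22. IFA38 and PHS1 measured 76.4 ± 6.49 and 35.1 ± 6.47 CPM without rapamycin and 93.2 ± 12.4 and 40.7 ± 3.61 CPM with it (SD, n = 2). Over the whole list, 2 genes were called higher when with rapa replicate 2 was left out.

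Mitochondrial fatty acid synthesis, a separate pathway of bacterial type, had 1 of 6 tested genes lower, 0 higher and a median of -0.28. CEM1, its condensing enzyme, went from 50.2 ± 8.14 to 25.4 ± 0.432 CPM (log2 fold change -0.98 ± 0.22, adjusted p = 0.00304, edgeR), and lost its call without no rapa replicate 1 (-0.82). Of the other acyl-CoA synthetases and fatty acid uptake genes, 2 of 3 were lower and 0 higher, with a median of -0.55. All 3 transcripts were at least 2000 bases long. In the class from 2000 to 4000 bases 52.7% of transcripts were lower and the median was -0.53. FAT1, a fatty acid transporter that also activates very long chains, went from 195 ± 4.01 to 105 ± 9.53 CPM (-0.90 ± 0.16). FAA3 was lower at -0.55 ± 0.18, a call lost without no rapa replicate 1 and under 4 other settings, while FAA2, the peroxisomal enzyme, was uncalled at 0.21 ± 0.23.

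Of 12 genes of regulators, 9 were lower, 0 higher and 3 uncalled, with a median log2 fold change of -0.90. MGA2, whose product is a membrane-bound activator of OLE1, went from 490 ± 46.8 to 148 ± 11.8 CPM (SD, n = 2), which is -1.73 ± 0.18 (SE) as a log2 fold change. OLE1 itself was uncalled, and a link between the values of MGA2 and OLE1 was not tested. PIP2 (-1.41 ± 0.16), a partner in the activator of fatty acid oxidation, and the general factor genes REB1 (-1.17 ± 0.21) and ABF1 (-0.86 ± 0.16) followed MGA2 in order of adjusted p. These transcripts had a median length of 2618 bases, and 8 of the 12 were at least 2000 bases long. Of transcripts from 2000 to 4000 bases, 52.7% were lower.

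Of 11 tested genes of beta-oxidation, the breakdown of fatty acids in peroxisomes, 5 were higher, 1 lower and 5 uncalled, with a median log2 fold change of 0.46. Over all features 19.3% were called higher. Without transcripts that overlap another, only 3 of these genes were tested, with 0 higher, 1 lower and a median of -0.22. ECI1, an enoyl-CoA isomerase gene, went from 6.27 ± 0.129 to 24.9 ± 5.09 CPM (1.99 ± 0.32), SPS19, a reductase gene, from 1.57 ± 0.829 to 11.1 ± 0.0400 CPM (2.81 ± 0.56), and the acyl-CoA oxidase gene POX1 from 2.02 ± 0.109 to 11.3 ± 7.85 CPM (2.49 ± 0.58; adjusted p = 0.00411, edgeR). The catalase gene CTA1 was higher at 1.30 ± 0.27. DCI1, named after its value was seen as the gene that was lower, stood at -1.53 ± 0.37, and no longer passed without no rapa replicate 1. Apart from CTA1, the higher genes stood at 6.27 CPM or less without rapamycin. Of the 5 MATa markers, MFA1, MFA2, BAR1 and AGA2 were higher in both libraries with rapamycin than in both without, while for STE2 the groups overlapped. Over all features, with TMM scaling, 34.1% lay above without overlap. FPR1, also at a low level, was not higher with rapamycin (2.10 and 2.25 CPM without, 2.01 and 1.81 with it, unscaled). Their part in the beta-oxidation values was not tested.

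Of 11 genes of sphingolipid synthesis, which uses very long chains, 7 were lower, 0 higher and 4 uncalled, with a median log2 fold change of -0.51. IPT1, which adds the last head group of the most complex yeast sphingolipid, went from 253 ± 48.9 to 71.4 ± 10.7 CPM (-1.83 ± 0.19), SUR2, a hydroxylase gene, from 136 ± 18.9 to 54.4 ± 0.856 CPM (-1.32 ± 0.18), and LAC1, a ceramide synthase gene, from 83.9 ± 27.2 to 27.4 ± 8.98 CPM (-1.61 ± 0.27; SD, n = 2, and SE). SCS7, a fatty acid hydroxylase gene, stood at -0.73 ± 0.17. These transcripts had a median length of 1429 bases, and 1 of them was at least 2000 bases long. In the class from 1000 to 2000 bases 29.5% of transcripts were lower, and over all features 26.7%. The part of length in this count was not tested. The count of lower genes was 4 with DESeq2, with library size alone, with open reading frames alone and without no rapa replicate 1.

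In storage lipid synthesis and lipases 5 of 9 tested genes were lower, 0 higher and 4 uncalled, with a median log2 fold change of -0.71. Of these 9 transcripts, 6 were at least 2000 bases long, and 52.7% of all transcripts from 2000 to 4000 bases were lower. The lipase genes TGL5 (-1.86 ± 0.16) and TGL3 (-1.74 ± 0.17) and the acyltransferase genes LRO1 (-1.10 ± 0.17) and DGA1 (-1.03 ± 0.19), which make triacylglycerol, were lower. TGL3 went from 162 ± 5.57 to 48.6 ± 2.56 CPM (SD, n = 2). The count was 8 without with rapa replicate 1.

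**Figure D5:**
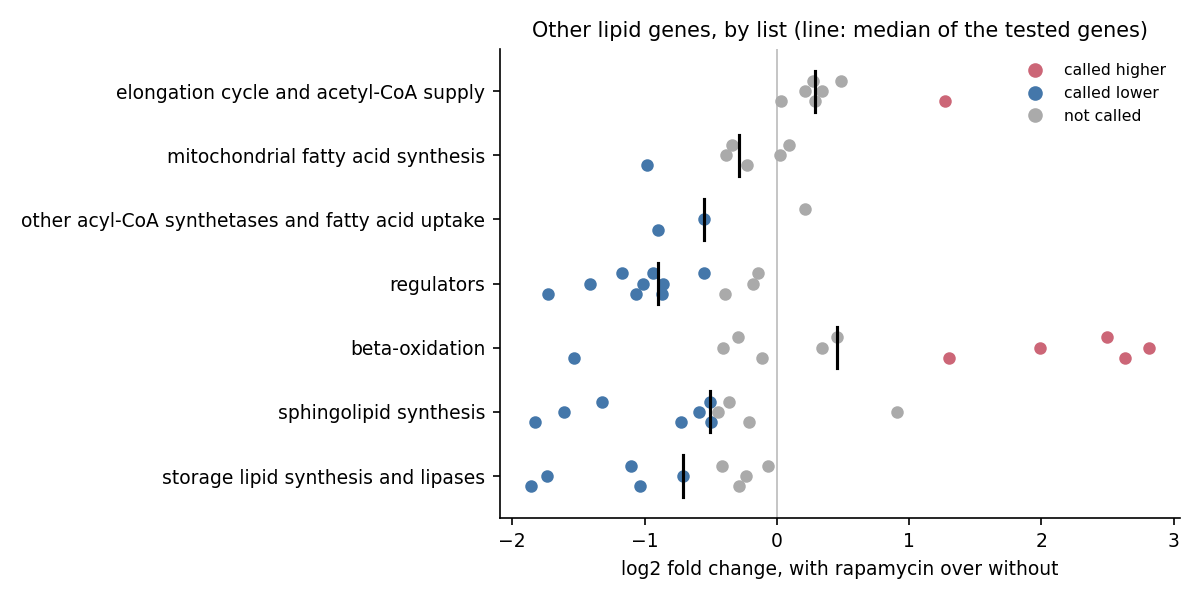
Log2 fold change with rapamycin over without for the 59 tested genes of the 7 lists, 1 point per gene, spread vertically only for legibility and coloured by whether it was called higher, lower or not called. The black line is each list's median, lowest for the regulators at -0.90 and highest for beta-oxidation at 0.46.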

How the data were processed

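The authors deposited raw read counts per annotated transcript for 4 libraries of labelled RNA, together with the annotation (start and end coordinates). The submitters' processing notes name STAR 2.3.0, HTSeq and SAMtools, and as builds R64 and sacCer3, with no role given; alignment filters and the strand setting are not given in the sources used here. All 4842 open reading frames matched by name to the R64 gene table lay inside their annotated transcript. Of 254 features wholly under an opposite-strand feature, 204 had counts in every library. Rows naming no feature (outside features, 33.1% to 50.5% of reads; ambiguous, at most 0.0930%) were left out.

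Counts of all features were fitted with edgeR 4.0.16 in R 4.3.3 (TMM, default filterByExpr; group tested two-sided by quasi-likelihood F), with Benjamini-Hochberg adjustment over 5707 features, a threshold of 0.05, and a script tested on simulated data. The SE is the absolute log2 fold change over the square root of F. Replicates differed far beyond sampling noise (chi-square over its degrees of freedom of 80.4 and 65.7). Alternatives included DESeq2 1.42.0. List medians are descriptions. The rule for named genes took all members, up to 4 called genes of each list by adjusted p, and the 3 profiles nearest to OLE1; the one for FAS1 was not analysed here. IFA38, PHS1, FAA2 and DCI1 were named beyond it. Members and lists were chosen with earlier results of these data known.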

Additional observations from a re-analysis of the deposited data

How the results depend on the processing

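The directions of ELO3, ELO2, ELO1, FAA1 and FAA4 held under every one of the alternatives that tested them, and ELO3 was called in all of them. Without transcripts that overlap another, ELO2, FAA1 and ACB1 were not tested, and 1330 features were called against 2623, with 0 of the genes described here higher, and 0 higher and 14 lower among the other lipid genes against 6 and 25; fewer features were tested there (2760). With the size factors of DESeq2 in edgeR, the log2 fold change of FAA4 was -0.61 (adjusted p = 0.0605). ACB1 turned sign to 0.056 with those size factors, 0.099 with library size alone, 0.049 with DESeq2 and 0.11 with open reading frames alone, and was uncalled throughout. Library size alone moved fold changes up by a median of 0.11 and open reading frames alone by 0.12 on the log2 scale.

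Leaving out 1 library gave 1588 to 3312 called features, 0 to 1 of the genes described here higher and 1 to 3 lower, and 4 to 8 higher and 18 to 30 lower among the other lipid genes. The log2 fold change ranged from -1.27 to -0.40 for ELO2, 0.49 to 0.77 for FAA1, -0.91 to -0.42 for FAA4, -0.57 to -0.02 for ELO1, -0.19 to 0.36 for OLE1 and -0.074 to 0.078 for ACB1; the lone library of a group is assumed to vary like the other pair. The ratio of ELO2 to ELO3 turned sign without no rapa replicate 2 (-0.21 against 0.20). Causes were not tested. Same-numbered libraries share only a number in the labels, and their deviations correlated at 0.233 across features. With the replicate block 2970 features were called, with the same 1 higher and 3 lower among the genes described here. Every gene described here had at least 274 counts in each library, and the SE of ACB1 (0.22, at 311 to 972 counts) was as large as that of FAA4 (0.22, at 7025 to 30158).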
